A study of Mus musculus with 6 samples.

Results

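Voltage-gated sodium channels of neurons are built from a pore-forming alpha subunit and auxiliary beta subunits, and 7 genes that encode such subunits are described here in the developing auditory brainstem of the mouse. Scn1a, Scn2a, Scn3a and Scn8a encode alpha subunits, and Scn2b, Scn3b and Scn4b encode beta subunits. These 7 genes were taken by name, each through the probe sets that the annotation of the Affymetrix mouse expression array assigns to that gene alone. The probe set with the highest mean over all arrays stood for the gene, and the remaining probe sets served as a check. The 7 genes had 20 probe sets, and all 7 were among the 12958 genes tested, of 18193 that had a probe set.

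The alpha subunit opens on depolarisation and carries the rising phase of the action potential. Scn2a and Scn3a are known as the alpha subunits of immature axons and cell bodies, and Scn8a is known to take over from Scn2a at nodes of Ranvier and initial segments as axons myelinate. The beta subunits are single-pass membrane proteins with an immunoglobulin-like domain that tune gating and placement of the channel. Scn4b is known for its part in the resurgent sodium current, which supports firing at high rates and has been described in auditory brainstem neurons.

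RNA came from 3 nuclei of male C57BL/6J mice that carry no stated mutation or treatment. They were the ventral cochlear nucleus (VCN), where the auditory nerve ends, and a pair of its targets. The lateral superior olive (LSO) compares sound level between the ears. The MNTB, the medial nucleus of the trapezoid body, is made mostly of inhibitory relay neurons. Each nucleus was sampled at postnatal day 3 (P3), before hearing begins, and at postnatal day 14 (P14), with 1 array for each combination and 6 arrays in all. Each array held RNA pooled from 6 animals at P3 or from 3 animals at P14, amplified from 20 ng, so that no spread between animals can be seen. Values are log2 RMA values per probe set, in which 1 unit is a doubling. Hybridisation differs between probe sets, so levels are compared only within a probe set, between arrays. All tests were made with limma, with additive terms for age and nucleus, and a gene was called where its Benjamini-Hochberg adjusted p was under 0.05. The error of an age difference therefore starts from how far that difference varied between the 3 nuclei. Limma then moderates it towards the variance of genes of like intensity, with 2 residual and 3.95 prior degrees of freedom. A printed SE is thus not the spread of the 3 nuclei alone. The p of an age difference measures repetition over nuclei, not over animals. The pool size and the Gapdh probe sets, whose 3' minus 5' difference was 1.21 to 1.41 at P3 and 1.06 to 1.11 at P14, changed with age and cannot be told apart from it.

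The tissue labels were set against marker lists. The neuron list (Rbfox3, Snap25, Syt1, Tubb3, Stmn2 and Nefl) averaged 11.91 to 12.03 on the P3 arrays and 11.15 to 11.62 on the P14 arrays. With age 1 of its 6 genes rose and 4 fell, with a median of -0.62. All 5 measured oligodendrocyte markers rose, with a median of 3.06, from list averages of 8.95 to 10.68 to averages of 12.47 to 12.66. At each age VCN was highest for its marker Atoh7, and MNTB was highest for the glycine and GABA transporter genes Slc6a5 and Slc32a1. Slc17a7, also on the VCN list, was too dim on average to be tested. Its value was 8.50 in VCN at P14, against 3.93 to 4.83 on the remaining arrays, VCN at P3 included (4.83). Slc17a6, listed as the LSO glutamatergic marker, did not mark LSO. It was higher in VCN (11.06 at P3 and 11.04 at P14) than in LSO (9.96 at P3 and 9.80 at P14). The LSO arrays carried the cholinergic genes Slc18a3 (9.80 at P3 and 9.88 at P14, against 4.71 to 5.46 on the remaining arrays) and Slc5a7. Isl1, on the same list, was too dim on average to be tested. It was 8.91 at P3 and 7.10 at P14 in LSO, against 4.13 to 4.40 on the remaining arrays. Chat, the defining cholinergic enzyme gene, stayed at 3.68 to 4.03 on all 6 arrays. Its 1 probe set was too dim to be tested. The VCN array at P14 stood apart by the choroid plexus transcript Ttr (12.58, against 6.61 to 6.93 elsewhere) and by the granule cell genes Gabra6 (7.97, against 3.26 to 4.37 elsewhere) and Cbln3 (8.54, against 4.17 to 6.53 elsewhere). Kl, Folr1 and Clic6, the rest of the choroid plexus list, were too dim to be tested. They were at 4.98, 6.26 and 5.48 on that array, against 4.44 to 5.52 elsewhere. Neurod1, also on the granule cell list, was high on both VCN arrays and higher at P3 (9.90) than at P14 (8.97). The part of these cell types in the results was not tested. In pooled tissue, fewer cells of a type and less RNA per cell cannot be told apart.

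The 7 genes lie on 3 chromosomes. In the RefSeq annotation Scn3a and Scn2a are neighbours on chromosome 2, and 3 protein-coding genes (Csrnp3, Galnt3 and Ttc21b) lie between Scn2a and Scn1a. Scn2b and Scn4b are neighbours on chromosome 9, which also holds Scn3b with 61 protein-coding genes between it and Scn2b, and Scn8a lies on chromosome 15. The promoter windows of the neighbouring pair that rose most, Scn2b and Scn4b, are shown first, followed by those of Scn1a and Scn2a, which share a chromosome and changed in opposite directions. Each runs from 250 bases before to 50 bases after a RefSeq start in the GRCm38.p6 assembly, 5′ to 3′ on the gene's strand. Capitals mark a CCAAT box (CCAAT, or ATTGG where it lies on the opposite strand) or a TATA box (TATAAA).
Scn2b, chr9:45117626-45117925, plus strand: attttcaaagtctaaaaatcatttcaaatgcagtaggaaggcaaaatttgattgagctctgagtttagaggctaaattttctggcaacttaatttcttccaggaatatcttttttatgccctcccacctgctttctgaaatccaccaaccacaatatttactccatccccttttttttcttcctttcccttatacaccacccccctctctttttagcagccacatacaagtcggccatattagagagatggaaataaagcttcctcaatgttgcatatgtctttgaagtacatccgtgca
Scn4b, chr9:45138374-45138673, plus strand: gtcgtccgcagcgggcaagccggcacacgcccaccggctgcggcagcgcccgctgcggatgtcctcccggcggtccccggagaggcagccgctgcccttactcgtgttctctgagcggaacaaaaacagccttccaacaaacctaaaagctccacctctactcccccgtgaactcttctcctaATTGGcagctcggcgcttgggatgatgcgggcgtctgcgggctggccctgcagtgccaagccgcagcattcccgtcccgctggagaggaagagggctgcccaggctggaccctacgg
Scn1a, chr2:66440788-66441087, minus strand: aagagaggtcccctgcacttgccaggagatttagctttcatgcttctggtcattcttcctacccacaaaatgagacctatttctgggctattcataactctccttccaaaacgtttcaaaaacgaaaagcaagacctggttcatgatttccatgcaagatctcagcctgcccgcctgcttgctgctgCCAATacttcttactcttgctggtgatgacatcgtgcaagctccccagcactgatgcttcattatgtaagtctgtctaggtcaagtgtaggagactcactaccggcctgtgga
Scn2a, chr2:65668436-65668735, plus strand, the second of its 2 starts: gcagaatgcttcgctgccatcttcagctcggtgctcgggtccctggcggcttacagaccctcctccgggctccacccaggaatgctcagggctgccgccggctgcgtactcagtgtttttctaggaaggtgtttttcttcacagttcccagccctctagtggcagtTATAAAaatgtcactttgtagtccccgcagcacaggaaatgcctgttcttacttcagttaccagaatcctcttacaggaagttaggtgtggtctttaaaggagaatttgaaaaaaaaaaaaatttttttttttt

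The windows of the neighbours Scn2b and Scn4b differ widely in base composition. The Scn2b window is 38.3% G and C with 2 CpG dinucleotides and holds neither box. The Scn4b window is 66.3% G and C with 26 CpG dinucleotides, and it holds 1 CCAAT box. Over 32841 mouse windows of the same length the median was 52.7% G and C, with a middle range of 45.7% to 61.7%. Scn1a (47.3%) and the Scn2a window shown (47.7%) lie inside that range, with 1 CCAAT box and 1 TATA box respectively. The Scn2a window not shown lies below it, at 33.0%, and holds neither box. On both strands, 37.4% of all windows hold CCAAT and 13.6% hold TATAAA. The GC box (GGGCGG, in 35.7% of windows) and both parts of the element bound by the repressor Rest (TTCAGCACC in 0.371% and GGACAGC in 6.56%) were in none of the 7 windows of Scn1a, Scn2a, Scn8a, Scn2b and Scn4b. The E-box CANNTG, present in 72.3% of windows, occurred 3 times in the Scn2b window and not in that of Scn4b. A match of letters is a description of the window only. Scn3a and Scn3b were not matched.

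The 7 subunit genes were first compared between P3 and P14. Scn4b, Scn2b and Scn1a rose and Scn2a, Scn3a and Scn3b fell, so that alpha and beta subunits each changed in both directions. The rises were 9.04-fold for Scn4b, 3.08-fold for Scn2b and 1.90-fold for Scn1a. The falls were 4.36-fold for Scn3b, 4.31-fold for Scn3a and 2.62-fold for Scn2a. Scn8a did not pass the test with its main probe set, although 3 of its other probe sets did. The calls were 3 higher and 3 lower of 7 genes, beside 41% of all genes tested, with 23.4% higher and 17.7% lower. On all 7 genes the P3 and P14 arrays did not overlap, which held for 53.6% of all genes tested. The median size of the age difference was 1.62 log2 units over the 7 genes and 0.31 over all genes tested. Calls with changes of 1 log2 unit or more were made for 10.5% of all genes tested, and 5 of the 7 subunit genes were among them. Those of 2 log2 units or more were made for 1.69%, and Scn3a, Scn3b and Scn4b were among them.

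**Figure D1:**
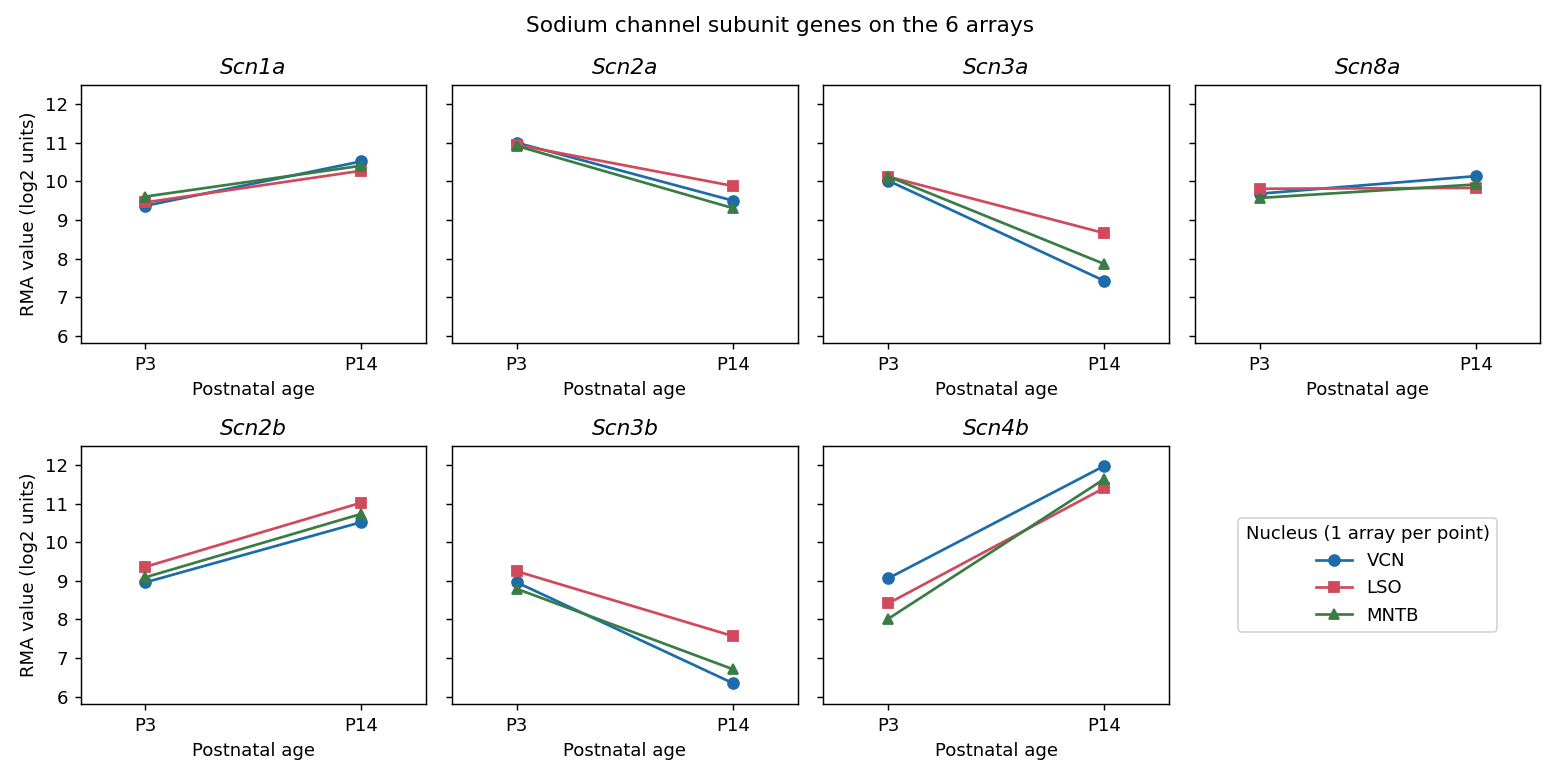
Log2 RMA values (y axis) of the 7 sodium channel subunit genes at P3 and P14 (x axis), with 1 point for each array and a line joining the arrays of a nucleus. Scn1a, Scn2b and Scn4b rise in VCN, LSO and MNTB, Scn2a, Scn3a and Scn3b fall in all 3, and Scn8a moves least.

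Among the alpha subunits, the fall was steepest for Scn3a, the subunit known for its expression around birth. Its values at P3 were 10.02 in VCN, 10.12 in LSO and 10.13 in MNTB, and at P14 they were 7.42 in VCN, 8.66 in LSO and 7.86 in MNTB. The P3 arrays lay within 0.11 log2 units of each other, and every P14 array lay far below them. The age difference was -2.11 ± 0.22 (SE, n = 3 nuclei; limma adjusted p = 0.00125). By nucleus it was -2.59 (VCN), -1.46 (LSO) and -2.27 (MNTB). The second probe set of Scn3a was too dim to be tested (4.17 to 4.93) and differed by -0.68, and the median of both probe sets gave -1.39 (limma adjusted p = 0.0012).

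Scn2a, the alpha subunit of unmyelinated axons and immature initial segments, fell less. At P3 its values were 11.00 in VCN, 10.95 in LSO and 10.92 in MNTB, and at P14 they were 9.50 in VCN, 9.88 in LSO and 9.31 in MNTB. As with Scn3a the P3 arrays were close together, within 0.08 log2 units, and the P14 arrays spread out below them. The age difference was -1.39 ± 0.12 (SE, n = 3 nuclei; limma adjusted p = 0.000848). By nucleus it was -1.50 (VCN), -1.06 (LSO) and -1.61 (MNTB). Of the other 3 probe sets, 2 had age differences of -1.72 and -1.63 on the log2 scale, and the dimmest, with values of 5.55 to 5.86, differed by -0.19 and did not pass. Scn3a fell further than Scn2a in each nucleus, by 0.40 log2 units in LSO, 0.66 in MNTB and 1.10 in VCN.

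Scn1a, the alpha subunit of many fast-spiking neurons, rose. Its values at P3 were 9.37 in VCN, 9.46 in LSO and 9.61 in MNTB, and at P14 they were 10.52 in VCN, 10.28 in LSO and 10.41 in MNTB. The lowest P14 array was well above the highest P3 array, and the nuclei were about as close together at P14 as at P3, with ranges of 0.24 at both ages. The age difference was 0.92 ± 0.10 (SE, n = 3 nuclei; limma adjusted p = 0.00168). All 3 probe sets rose, by 0.73 to 0.92. The contrast with Scn2a, near which it lies on chromosome 2, held in every nucleus: the change of Scn1a exceeded that of Scn2a by 2.65 in VCN, 1.88 in LSO and 2.41 in MNTB. Of the genes between them, Csrnp3 fell by 0.75 on the log2 scale (limma adjusted p = 0.00594). Ttc21b rose by 0.34 (limma adjusted p = 0.049) and Galnt3 was not tested.

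Scn8a, the alpha subunit of mature nodes, was the least certain of the 7. At P3 its values were 9.68 in VCN, 9.81 in LSO and 9.57 in MNTB, and at P14 they were 10.14 in VCN, 9.83 in LSO and 9.92 in MNTB. The age groups did not overlap, but the LSO arrays of both ages differed by 0.02 only. The age difference of 0.28 ± 0.11 (SE, n = 3 nuclei) did not pass (limma adjusted p = 0.0989), with an unadjusted 95% interval of 0.00059 to 0.55. The other 3 probe sets above the intensity limit rose by 0.66, 0.57 and 0.73 (limma adjusted p = 0.0131, 0.0145 and 0.00817 over probe sets), and the dimmest, at 3.84 to 4.24, was too dim to be tested. Summarised by the median of all its sets, Scn8a rose by 0.57 (limma adjusted p = 0.0143). Without the MNTB array at P3 its difference was 0.49 (limma adjusted p = 0.0728), because another probe set then had the highest mean. In each nucleus the change of Scn8a exceeded that of Scn2a, by 1.95 in VCN, 1.08 in LSO and 1.96 in MNTB.

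**Figure D2:**
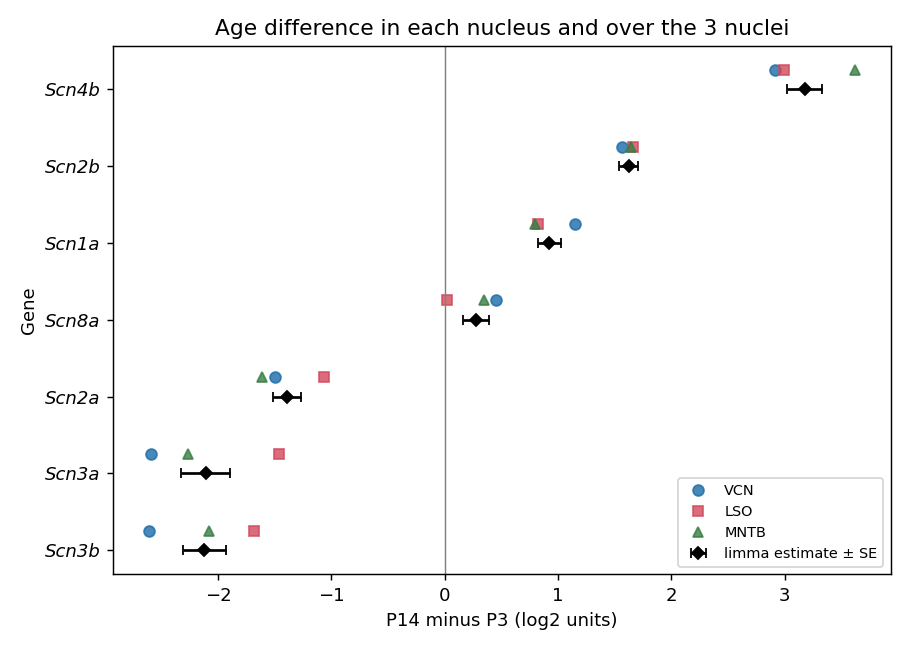
P14 minus P3 in log2 units (x axis) for the 7 genes, with 1 coloured point per nucleus and a black diamond with bars for the limma estimate ± SE over the 3 nuclei. Scn4b lies furthest to the right at 3.18, Scn3a and Scn3b lie furthest to the left at -2.11 and -2.12, and the LSO point lies closest to 0 for Scn2a, Scn3a, Scn8a and Scn3b.

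Scn4b changed most of the 7 genes and ranked 44 among all genes tested by the size of its age difference. Its values at P3 were 9.06 in VCN, 8.41 in LSO and 8.02 in MNTB, and at P14 they were 11.98 in VCN, 11.41 in LSO and 11.64 in MNTB. Every P14 array was more than 2 log2 units above every P3 array. The age difference was 3.18 ± 0.15 (SE, n = 3 nuclei; limma adjusted p = 0.000378), with 2.91 in VCN, 2.99 in LSO and 3.62 in MNTB. Scn4b had 1 probe set on this array, so no second one checks it. The nuclei spread over 1.05 log2 units at P3 and 0.57 at P14, and VCN was highest at both ages. A P3 range of at least 1 log2 unit, a cutoff close to the range of Scn4b itself, was found in 4.28% of all genes tested.

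Scn2b, a beta subunit joined to the alpha subunit by a disulfide bond as Scn4b is, also rose. At P3 its values were 8.96 in VCN, 9.36 in LSO and 9.09 in MNTB, and at P14 they were 10.52 in VCN, 11.02 in LSO and 10.73 in MNTB. The order of the nuclei, LSO above MNTB above VCN, was the same at both ages. The age difference of 1.62 ± 0.08 (SE, n = 3 nuclei; limma adjusted p = 0.000378) varied least between nuclei, at 1.56 in VCN, 1.66 in LSO and 1.64 in MNTB. All 3 probe sets rose, by 1.32 to 1.86. The small spread was that of the main set only. The next set kept the order of the nuclei but changed by 2.05 in VCN, 1.62 in LSO and 1.89 in MNTB. In the dimmest set the changes were 1.70 in VCN, 1.45 in LSO and 0.81 in MNTB. The constant order did not hold there, as MNTB was highest at P3 and lowest at P14. The change of Scn4b exceeded that of its chromosomal neighbour Scn2b by 1.33 in LSO, 1.35 in VCN and 1.98 in MNTB.

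Scn3b, a beta subunit that binds the alpha subunit without a disulfide bond, fell. Its values at P3 were 8.96 in VCN, 9.24 in LSO and 8.79 in MNTB, and at P14 they were 6.35 in VCN, 7.57 in LSO and 6.71 in MNTB. The highest P14 array, that of LSO, lay well below the lowest P3 array. The age difference was -2.12 ± 0.19 (SE, n = 3 nuclei; limma adjusted p = 0.000848), with -2.61 in VCN, -1.68 in LSO and -2.08 in MNTB. Its second probe set fell by 1.94 on the log2 scale. The beta subunits thus moved apart: between P3 and P14 Scn4b gained on Scn3b by 4.67 to 5.70 log2 units across the nuclei, and Scn2b gained on Scn3b by 3.34 to 4.17.

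**Figure D3:**
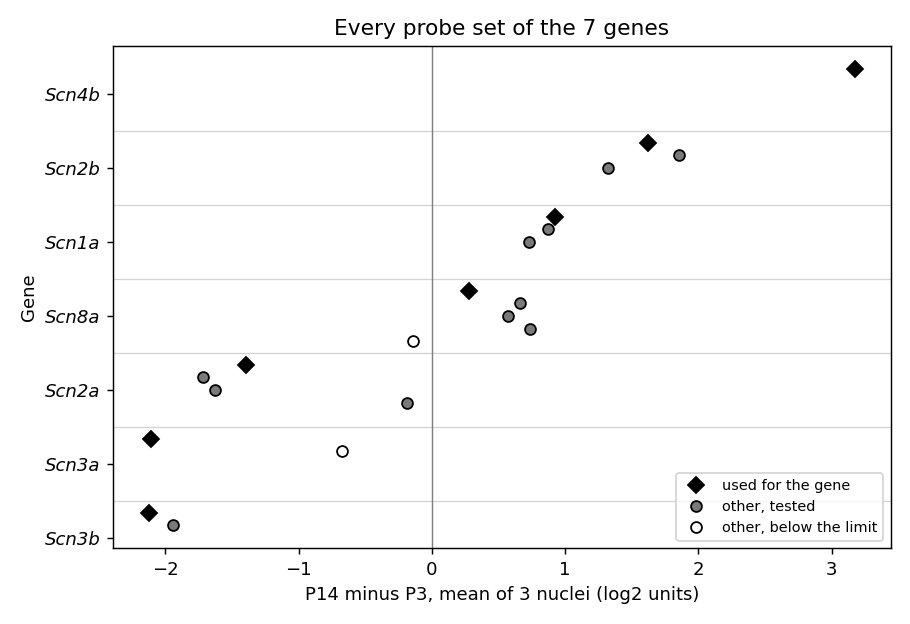
P14 minus P3, mean of 3 nuclei in log2 units (x axis), for all 20 probe sets of the 7 genes, with diamonds for the probe sets used, grey circles for other tested ones and open circles for those below the intensity limit. Tested probe sets of a gene lie on 1 side of 0, with the dimmest sets of Scn8a (-0.14, not tested) and Scn2a (-0.19) and the main set of Scn8a (0.28) nearest to it.

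Over all probe sets of the 7 genes, 18 of 20 were tested, of which 10 rose and 6 fell, beside 41.2% called of 27000 probe sets tested (21.7% higher and 19.6% lower). The 2 tested sets that did not pass were the main set of Scn8a and the dimmest set of Scn2a. Probe sets of a gene share the same RNA and are not replicates.

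Several values beside these changes moved with age as well. Relative to the mean of the 6 neuron markers, which itself differed by -0.49 between P3 and P14, the mean differences were 3.66 for Scn4b, 2.11 for Scn2b, 1.41 for Scn1a, 0.76 for Scn8a, -0.90 for Scn2a, -1.62 for Scn3a and -1.63 for Scn3b. The marker mean itself fell in each nucleus, by -0.30 in VCN, -0.41 in LSO and -0.76 in MNTB. A gene that rose could therefore only rise further against it. Scn2a, Scn3a and Scn3b, which could have turned, also fell relative to the markers in each of the 3 nuclei. The VCN array at P14 carried the choroid plexus transcript Ttr and the granule cell transcripts Gabra6 and Cbln3. Leaving out that array takes VCN out of the age difference, which then rests on LSO and MNTB. It is thus not a check of that array alone. Without that array, the age differences were 3.31 for Scn4b, 1.65 for Scn2b and 0.81 for Scn1a. They were -1.34 for Scn2a, -1.87 for Scn3a and -1.88 for Scn3b, and limma called each of these genes. Scn8a differed by 0.19 without that array and did not pass.

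The nuclei were compared next, over both ages. None of the 7 genes passed for any pair of nuclei, and few genes of any kind did: limma called 0.162% of genes tested for MNTB minus LSO, 0.602% for MNTB minus VCN and 0.37% for VCN minus LSO. At an unadjusted p under 0.05, limma gave 2 of 7 genes for MNTB minus LSO (Scn2b and Scn3b), 1 for MNTB minus VCN (Scn4b) and 4 for VCN minus LSO (Scn3a, Scn2b, Scn3b and Scn4b), beside 6.8%, 9.53% and 8.98% of all genes tested. The lowest adjusted p was 0.226. That lowest value belonged to Scn2b, which was lower in VCN than in LSO by 0.40 at P3 and by 0.50 at P14, with an unadjusted 95% interval of -0.70 to -0.20 for VCN minus LSO. Scn4b was higher in VCN than in MNTB by 1.05 at P3 and by 0.34 at P14, and MNTB minus VCN had an unadjusted interval of -1.15 to -0.24. Scn1a, Scn2a and Scn8a had intervals that included 0 in all 3 pairs.

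The genes that fell with age separated the nuclei at P14 more than at P3. Scn2a, Scn3a and Scn3b were all highest in LSO at P14, above the next nucleus by 0.38, 0.80 and 0.86. The range over the 3 nuclei went from 0.08 at P3 to 0.58 at P14 for Scn2a, from 0.11 to 1.24 for Scn3a and from 0.46 to 1.22 for Scn3b. At P14 Scn3a and Scn3b had the order LSO, MNTB, VCN, which neither main probe set showed at P3. The main set of Scn2a was lowest in MNTB at P14, but 2 of its 4 tested sets were lowest in VCN. A P14 range of at least 1.2 was found in 3.16% of all genes tested, and a P3 range of at most 0.12 together with a P14 range of at least 0.5 in 0.841%. Of all genes that fell, 43.2% had their smallest change in LSO, as these 3 did. LSO was above both other nuclei at P14 by at least 0.3 in 12.8%. The cutoffs of 0.12, 0.3, 0.5 and 1.2 lie close to values seen in these 3 genes, so the shares are descriptions only. Of the 7 tested probe sets of the 3 genes, 6 were highest in LSO at P14, and the dimmest Scn2a set was the exception. Each of these values rests on the single LSO array at P14, and with 1 array per combination the difference between nuclei in the age change has no test. At P14 the neuron markers averaged 11.60 in VCN, 11.62 in LSO and 11.15 in MNTB. The cholinergic list genes Slc18a3, Slc5a7 and Isl1 were high in LSO at both ages, whereas the dim probe set of Chat was not. The part of either in these values was not tested.

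**Figure D4:**
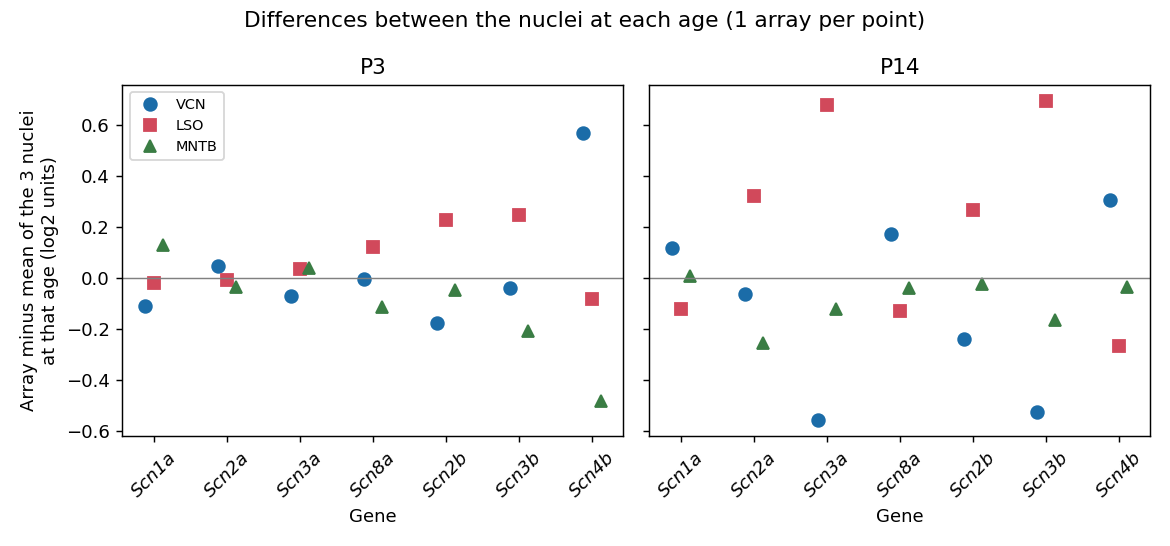
Each array minus the mean of the 3 nuclei at that age, in log2 units (y axis), for the 7 genes (x axis), at P3 on the left and P14 on the right, with 1 point per array. At P14 the LSO points of Scn3a and Scn3b stand highest and the VCN points lowest, while at P3 the widest spread is that of Scn4b.

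Scn8a showed the reverse order. It was highest in LSO at P3 and lowest in LSO at P14 in 4 of 4 tested probe sets, with a main-set change of 0.02 in LSO beside 0.45 in VCN and 0.35 in MNTB. In the other 3 tested sets the LSO change was also the smallest, at 0.26 to 0.41. The difference of Scn8a between nuclei over both ages did not pass in any pair, with unadjusted intervals of -0.41 to 0.26 for MNTB minus LSO, -0.50 to 0.17 for MNTB minus VCN and -0.25 to 0.43 for VCN minus LSO. At P14 Scn1a was highest in VCN and lowest in LSO, by 0.24, and at P3 it was highest in MNTB.

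The genes most like each subunit gene over the 6 arrays were found by the root mean square difference of values centred on each gene's own mean. The genes closest to Scn3b were Efna3 (0.09 log2 units), Scn3a (0.14) and Ly6h (0.16), and those closest to Scn3a were A230006K03Rik (0.07), Ly6h (0.11) and C2cd4c (0.13). Erc2 (0.08), Rsph9 (0.07) and Ppp1r26 (0.09) were closest to Scn2a. For Scn1a these were Dhrs7, Tfrc and Abhd6 (each 0.06). For Scn8a they were Mettl18 (0.03), Cebpzos (0.03) and Cox15 (0.05). Scn2b had Tmem119 (0.11), Tmc7 (0.12) and Litaf (0.12). Scn4b had Col1a1 (0.21), Ypel2 (0.24) and Dmp1 (0.25). This measure grows with the size of the change, so its values are not ranked between the 7 genes. Likeness over 6 arrays is mostly likeness of the age difference, and it is a description.

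Partner genes of the channels were counted from a list of 32, of which 26 had a probe set and 23 were tested. With age 4 rose, 7 fell and 12 did not pass, beside 41% called of all genes tested. The list's median age difference was -0.0040, against 0.03 over all genes tested. By role, 4 rose and 2 fell of 10 tested anchor, node and matrix genes, 0 rose and 2 fell of 4 FGF homologous factors, 0 rose and 3 fell of 7 genes of turnover and control, and neither of 2 other channel genes passed.

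The FGF homologous factors are intracellular proteins that bind the tail of the alpha subunit and shift its inactivation. Fgf13 fell, from 10.26, 10.98 and 9.92 in VCN, LSO and MNTB at P3 to 9.01, 9.84 and 8.44 at P14. Its age difference was -1.29 ± 0.10 (SE, n = 3 nuclei; limma adjusted p = 0.000639). Fgf13 was also lower in MNTB than in LSO over both ages, by 1.06 at P3 and 1.40 at P14 (limma estimate -1.23, adjusted p = 0.0438). That difference did not pass without either LSO array (0.371 and 0.322), without either MNTB array (0.173 and 0.309), as the median over probe sets (0.0598), with no filter (0.0678), without the intensity trend (0.0827) or without the age term (adjusted p = 1). Fgf14 fell by 0.93 on the log2 scale (limma adjusted p = 0.00396), with -1.68 as the median over its 4 probe sets. Fgf12 did not pass at 0.36 (limma adjusted p = 0.071), with 0.0030 in LSO, 0.54 in VCN and 0.53 in MNTB. As the median over probe sets, or without either LSO array, Fgf12 passed (limma adjusted p = 0.0147, 0.0233 and 0.0225).

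Anchors and matrix proteins of the initial segment and node included the 4 partners that rose. Hapln2, a link protein of the matrix around nodes, went from 4.59, 3.91 and 3.94 in VCN, LSO and MNTB at P3 to 8.30, 9.02 and 9.09 at P14. All 3 of its P3 values lay below the intensity limit of 5.57, so Hapln2 was tested only through its P14 values, and its P3 level was not shown to be above background. The limma difference of 4.65 ± 0.30 (SE, n = 3 nuclei; adjusted p = 0.000441) is therefore not a measured size. It was 4.29 with values floored at 4.47 and 2.79 as the median over probe sets. Nfasc, an adhesion molecule of nodes and initial segments, rose by 1.74 (limma adjusted p = 0.00129), with probe sets from 0.11 to 1.74. The matrix protein gene Tnr rose by 1.08 (limma adjusted p = 0.00133). Sptbn4, the spectrin of nodes and initial segments, rose by 0.55 (limma adjusted p = 0.0426), and it did not pass without either VCN array (0.121 and 0.12), without either MNTB array (0.195 and 0.197), with no filter (0.0606) or after quantile normalization (0.0531). The ankyrin gene Ank3, which tethers channels at both sites, differed by -0.0040 and did not pass. Its sign changed with the centring of the arrays, and its 6 probe sets ran from -0.81 to 0.04.

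The adhesion molecule gene Nrcam fell by 0.46 on the log2 scale (limma adjusted p = 0.0179), and it did not pass without either MNTB array (0.0667 and 0.0643). Ank2 fell by 0.31 (limma adjusted p = 0.0163), or by 0.69 as the median over probe sets, and did not pass without the LSO or MNTB array of either age (0.0523 to 0.0622) or without the intensity trend (0.0601). Cntn1, a contactin of the axon surface, differed by 0.14 and did not pass (limma adjusted p = 0.106), although its probe sets ran from 0.07 to 3.46. It passed with no nucleus term (0.0495).

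**Figure D5:**
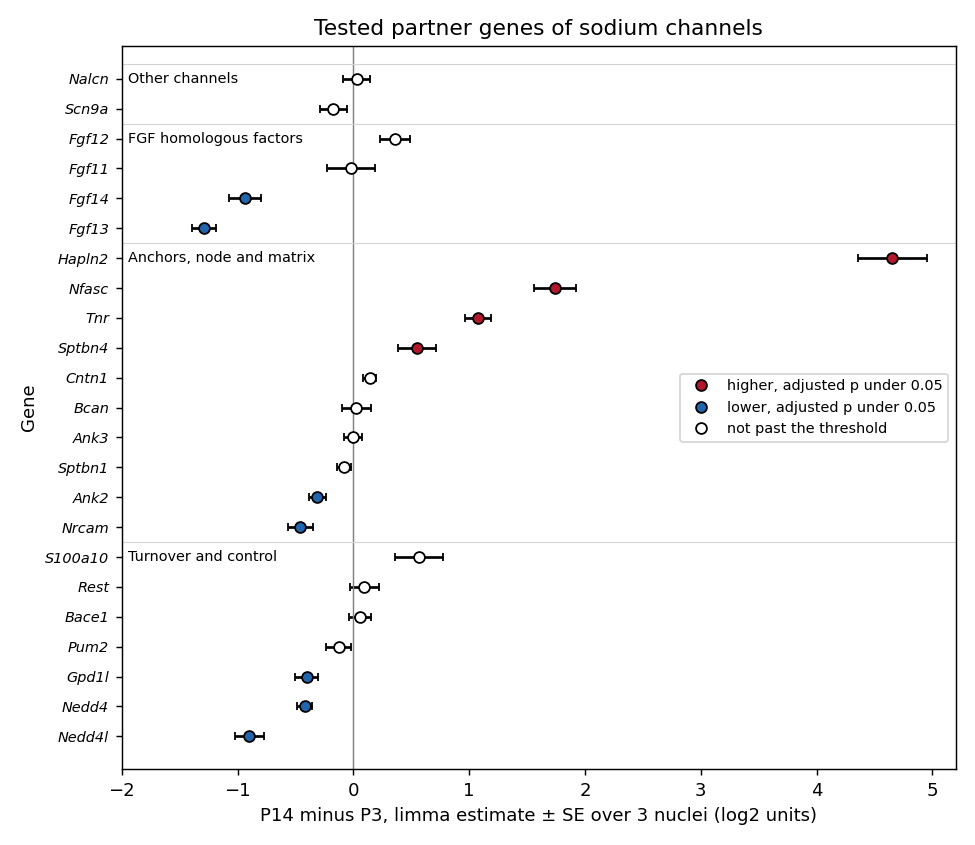
Limma age difference ± SE over 3 nuclei in log2 units (x axis) for the 23 tested partner genes, grouped by role, with red for a rise, blue for a fall and open circles for genes past no threshold. Nfasc stands at 1.74 and Fgf13 at -1.29, and 12 genes did not pass. The size shown for Hapln2 rests on P3 values below the intensity limit.

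Among genes that act on turnover, trafficking or transcription of the channels, the ubiquitin ligase genes Nedd4l and Nedd4 fell by 0.90 and 0.42 on the log2 scale (limma adjusted p = 0.00306 and 0.0048). Gpd1l fell by 0.40 (limma adjusted p = 0.0214) and did not pass without the LSO or MNTB array of either age (0.0843 to 0.109). Rest, a repressor of neuronal genes that include sodium channels, ranged from 8.27 to 8.62 over the 6 arrays and did not pass (0.10, limma adjusted p = 0.573). Bace1, a protease that cleaves beta subunits, did not pass with its main probe set (0.06, limma adjusted p = 0.664), but passed as the median over its 4 probe sets (0.89, limma adjusted p = 0.00133).

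Of the other sodium channel subunits on the list, Scn9a, which lies beside Scn1a on chromosome 2, was tested and did not pass (-0.17, limma adjusted p = 0.283). As the median over its 5 probe sets Scn9a passed, at -0.96 (limma adjusted p = 0.0337). Scn7a, Scn10a and Scn11a were below the intensity limit of 5.57.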

How the data were processed

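The 6 arrays held pooled tissue pulled from brainstem slices of 200 µm. The deposited log2 values were made by the authors with RMA, per the submitters' processing notes. Neither the version of RMA, nor scan batches, nor whether animals were shared between nuclei, is given in the sources used here. The members and lists were chosen with earlier results of these data known.

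Of 45101 probe sets, 64 were controls, 34945 named 1 gene, 932 several and 9160 none here. A gene took its probe set of highest mean, with _x_at sets used only where no other existed, and was tested if that mean reached the 40th percentile of all probe sets (5.57). Tests were two-sided, with limma 3.58.1 in R 4.3.3, an intensity trend, and 2 residual and 3.95 prior degrees of freedom. Age rests on 3 nuclei and each pair of nuclei on 2 ages. The steps were tested on simulated data. All 7 genes were named with their values, for each the 3 most similar genes, and of the partner list all genes past the age threshold with some others. All 7 symbols matched RefSeq (GRCm38.p6), and 5 had promoter windows. The number of arrays limits the precision. Alternatives were other probe set rules, filters, scalings, a floor, model terms, no trend and leaving out each array.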

Additional observations from a re-analysis of the deposited data

Results flagged for a closer look

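With 1 array per combination, the following differences between nuclei changed sign between P3 and P14, or the age change changed sign between nuclei. None of these differences was tested, and each rests on single arrays.

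Scn3a had the widest such shift: MNTB minus LSO was 0.0029 log2 units at P3 and -0.80 at P14, a shift of -0.80. Scn4b was lower in MNTB than in LSO at P3 (-0.40) and higher at P14 (0.23), a shift of 0.63. For Scn3b, MNTB minus VCN was -0.17 at P3 and 0.36 at P14, a shift of 0.53. For Scn2a, VCN minus LSO was 0.06 at P3 and -0.38 at P14, a shift of -0.44.

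Scn8a changed order, as LSO went from the highest to the lowest nucleus: VCN minus LSO was -0.13 and then 0.30 (shift 0.43), and MNTB minus LSO was -0.24 and then 0.09 (shift 0.33). Scn1a went from highest in MNTB at P3 to highest in VCN at P14. Its MNTB minus VCN values were 0.24 and -0.11 (shift -0.35), and its VCN minus LSO values were -0.09 and 0.24 (shift 0.33).

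Of the partner genes described with values, 3 had age changes of both signs, as did Fgf11, Nalcn, Bcan and Pum2, which are not described further. Rest differed by -0.15 in VCN and 0.30 in LSO, which are 0.45 apart. Bace1 differed by -0.04 in VCN and 0.23 in LSO, which are 0.27 apart. Ank3 differed by -0.11 in LSO and 0.11 in MNTB, which are 0.22 apart. None of these genes passed for age.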

How the results depend on the processing

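The 6 called genes of the 7 kept their direction and passed under all 15 alternatives run. These are not 15 separate checks, because leaving out either array of a nucleus takes that nucleus out of the age difference. Where the probe set stayed the same, both gave the same estimate. Scn8a kept its direction and passed only with the median of probe sets. Of 357 age differences of subunit and partner genes under alternatives, 325 kept their direction and call, 17 lost the call, 7 gained it and 8 changed sign. The genes called for age, 5317 in all, were 3139 to 4717 with an array left out, fewest without an MNTB array (3151 at P3, 3139 at P14), and the called partners 7 to 11, with 7 without either MNTB array. For the nuclei, the counts of 21 (MNTB and LSO), 78 (MNTB and VCN) and 48 (VCN and LSO) ran from 0 to 107, 17 to 213 and 2 to 158, highest without a VCN array. With a filter at the 60th percentile MNTB and VCN gave 51 and VCN and LSO 29. Without the age term limma called 1, 0 and 1 (165, 262 and 236 at an unadjusted p under 0.05). Of 315 differences of the 7 genes between nuclei, 0 passed (lowest adjusted p 0.0961) and 16 changed sign. With the median of probe sets MNTB minus LSO of Scn8a was 0.0207, MNTB minus VCN of Scn2a 0.0842 and the age difference of Rest -0.0195, and centring the arrays gave Ank3 0.0159. With an array left out, MNTB minus LSO ran from -0.88 to 0.0848 for Scn3a, -0.26 to 0.12 for Scn8a and -0.42 to 0.25 for Scn4b. MNTB minus VCN ran from -0.11 to 0.23 for Scn1a, -0.30 to 0.0263 for Scn2a, -0.0920 to 0.64 for Scn3a and -0.27 to 0.46 for Scn3b, and VCN minus LSO from -0.0926 to 0.25 for Scn1a, -0.41 to 0.0845 for Scn2a and -0.10 to 0.28 for Scn8a. The age difference ran from -0.0605 to 0.0515 for Ank3, -0.0050 to 0.22 for Rest and -0.0296 to 0.11 for Bace1. Where a value changed, the cause was not tested. Quantile normalization moved the rises from 57% to 50.7% of called genes. In every subunit gene with several probe sets, the dimmest set differed least in size with age. The part of low signal in this was not tested.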

Other observations

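Scn11a, a sodium channel alpha subunit known from sensory neurons, was below the intensity limit but stood out on 1 array. Its value was 7.32 in LSO at P3, against 4.02 to 4.65 on the other arrays, LSO at P14 included (4.48). Scn7a and Scn10a stayed at 4.41 to 5.66 and 4.50 to 5.09. These values belong to no comparison above.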
